A study of Mus musculus with 24 samples.

Results

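The difference between regulatory and conventional CD4 T cells was compared between blood and a lymph node. For each gene the gap between the 2 cell types, Treg minus Tconv on the log2 scale, was taken in blood mononuclear cells (PBMC) and in the liver-draining lymph node (LDLN). The node gap was then subtracted from the blood gap. This difference of gaps, called the interaction here, is positive where Treg stood higher against Tconv in blood than in the node, and negative in the opposite case. It used 12 of the 24 libraries of the series, 3 in each of the groups PBMC Treg, PBMC Tconv, LDLN Treg and LDLN Tconv, and 17234 of the 35612 genes in the deposited table. A gene entered where 3 or more of these libraries had a normalized read count of 10 or above. All groups came from male C57BL/6 mice, 5 months old, with the Foxp3Thy1.1 reporter, which puts the surface protein Thy1.1 on cells that express Foxp3. Each library held cells pooled from 3 mice. Thy1.1-positive cells were sorted as Treg and Thy1.1-negative cells as Tconv, from live CD4 cells that stained for TCRβ and not for CD8α, NK-1.1 or the CD1d tetramer. Tconv are therefore a mixture of naive and antigen-experienced helper cells.

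Regulatory T cells hold other immune cells in check and depend on the transcription factor Foxp3. Resting Treg pass between blood and lymph nodes, as naive helper cells do, and activated Treg change their adhesion molecules and chemokine receptors and can leave blood for tissues. A node holds T cells in contact with antigen-presenting cells, whereas blood holds cells in transit.

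Blood Treg differed from node Treg, each set against Tconv of the same site, in a small share of the genes tested. Annexin A1, galectin-1, galectin-3 and S100a6, which belong to calcium- or sugar-binding protein families, were severalfold higher in blood Treg than in the other 3 groups. The integrin chains Itga2 and Itgb1 followed that pattern, and Itgb7 was also highest in blood Treg, by less. In the opposite direction, Gucy1a1, Zc3h12c, Adgrg1, Cd83 and Tgfbr1 were highest in node Treg, and their advantage over Tconv was smaller in blood. The calls of S100a6, Itgb1 and Cd83 were lost in 8 or 9 of the 12 fits that each left out 1 library. S100a6, Itgb1 and Tgfbr1 were picked after their values were seen. The interactions of Foxp3 and Il2ra did not pass the test.

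The limma model of the 4 groups called 177 of the 17234 genes at a Benjamini-Hochberg adjusted p of 0.05, which is 1.03% of the genes tested. Of these, 133 (0.772%) had a positive interaction and 44 (0.255%) a negative one. A further measure counted genes where all 9 possible blood gaps of single libraries lay on 1 side of all node gaps: 643 genes (3.73%) had every blood gap above and 490 (2.84%) every blood gap below, 6.57% in all. All 177 called genes were among these. The median interaction of all genes tested was -0.013. The deposited values were already scaled between libraries, which tends to bring such a median near 0, so it does not measure how far the gaps agree.

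The called genes were not spread evenly over the groups. Of the 133 with a positive interaction, 110 had their highest mean in PBMC Treg and 93 their lowest mean in LDLN Treg. The sign of the gap differed between the sites in 85 of them, the gap was wider in blood in 31 and narrower in 17. The sign was counted however small the gap. Some of the 85 had a node gap near 0, such as Mmp25 (-0.04) and Aurka (-0.02). Others reversed clearly, such as Nebl (1.7 in blood and -1.2 in the node). Of the 44 with a negative interaction, 29 had their highest mean in LDLN Treg, 19 their lowest in LDLN Tconv and 14 their lowest in PBMC Treg. Positive interactions had a median of 1.2 (largest 4.19) and negative ones a median of -1.32. An interaction of 1 means that the ratio of Treg to Tconv was 2-fold higher in blood than in the node.

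**Figure D1:**
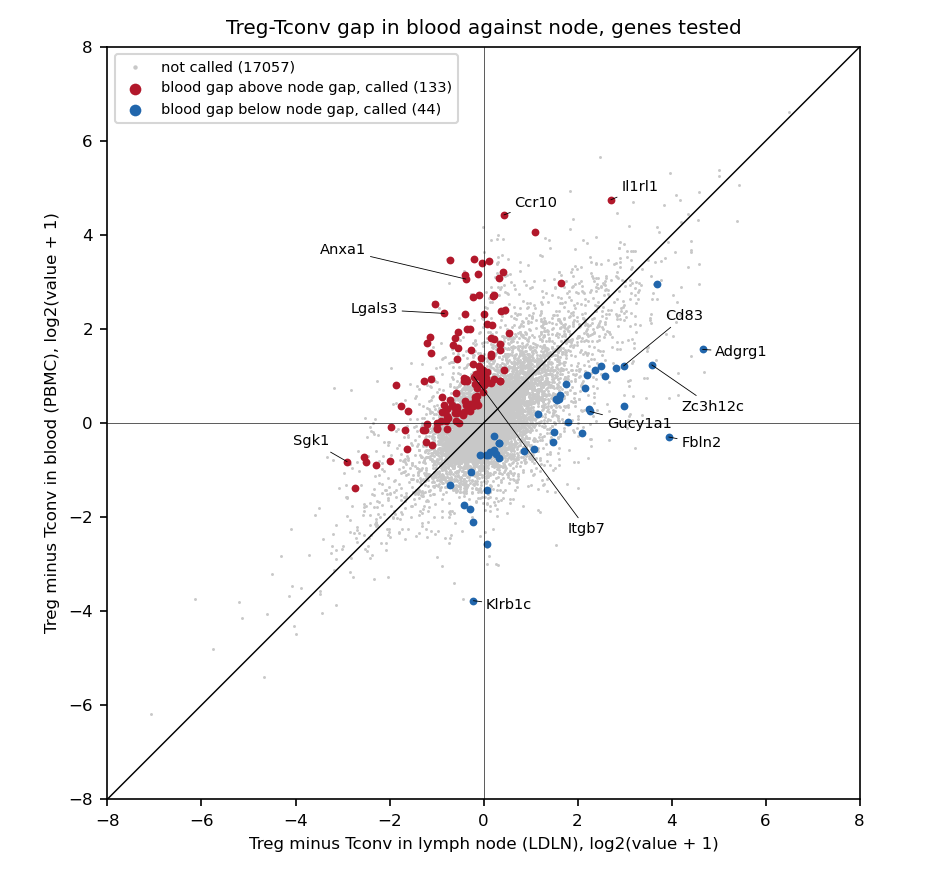
Each point is 1 of the 17234 genes tested, with the node gap on the x axis and the blood gap on the y axis, both as Treg minus Tconv in log2(value + 1). The diagonal marks equal gaps: the 133 red points lie above it and the 44 blue points below it, and many red points sit near a node gap of 0.

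The number of calls depended on single libraries. It fell to 78 without LDLN Tconv 1, 108 without LDLN Tconv 2, 82 without LDLN Treg 1, 84 without LDLN Treg 2, 104 without PBMC Tconv 1, 111 without PBMC Tconv 3, 94 without PBMC Treg 2 and 93 without PBMC Treg 3. Among the 44 negative calls alone, the number was 29 without PBMC Tconv 2 and 79 without PBMC Treg 1. The directions were steadier: of the 177 genes, at least 176 kept their sign in each of the 12 fits of 11 libraries. A set of 61 genes, 51 positive and 10 negative, was called in the fit of all 12 libraries and again without each library in turn. Genes of that set are described as having kept their call throughout. Other choices in the fit ended some calls as well. With all 24 libraries of the series sharing 1 estimate of spread, 116 of the 177 genes remained called, and among the genes named here Csf1r (adjusted p = 0.338), Ncf1 (0.203), Clec4a1 (0.131), Runx3 (0.0653) and Arhgap24 (0.0532) were lost although they kept their calls throughout. Without the variance trend 50 of the 177 remained called, and of the firm genes Lmna (0.0553), Popdc2 (0.0541), Adgrg1 (0.0526), Itgb3 (0.0867), Lgals1 (0.0864), Il9r (0.0649) and Runx3 (0.052) were lost. The count test of edgeR on the recovered reads kept 169 of the 177 and lost Ccr10 (0.123), Ccl6 (0.385) and Il1rl1 (0.059) among the genes named here.

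Depth was similar over the 12 libraries, with 17524296 to 22541466 reads recovered from the deposited values. On the third principal component of all genes tested (13.8% of the variance), PBMC Treg 1 lay at -70.9 and the other PBMC Treg libraries at 24.5 and 21.7. Reads were found for 21869 genes in PBMC Treg 1, against 27299 and 27697 in the others. Foxp3, the gene that defines the sort, had values of 1824, 2227 and 1911 in PBMC Treg and of 1787, 1856 and 1906 in LDLN Treg. In Tconv it was 627, 13.7 and 29.7 in PBMC and 25.4, 30.5 and 560.0 in LDLN, so PBMC Tconv 1 and LDLN Tconv 3 carried Foxp3 reads that the other Tconv libraries nearly lacked. Il2ra, the high-affinity chain for IL-2, was likewise raised in those Tconv libraries, at 910 and 1423 against 226 to 498 in the others. Without both of these Tconv libraries 129 genes were called, and without PBMC Treg 1 as well 241.

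Markers of other blood cells were read in every library. T cell genes such as Cd3e and Cd4 summed to between 139698 and 178697 over the 12 libraries. B cell genes summed to between 65232 and 143077 in blood and between 19649 and 43382 in the node. Erythroid genes summed to between 32761 and 50678 in blood and at most 1014 in the node, platelet genes to between 487 and 1474 and at most 87. Macrophage and monocyte genes differed between the blood groups too: the sum was 10337 to 12844 in PBMC Treg, 2050 to 3269 in PBMC Tconv, 1111 to 1745 in LDLN Treg and 680 to 785 in LDLN Tconv. In both Treg groups most of this was Ccr2, a chemokine receptor that T cells also make, and in both Tconv groups most was not. Without it, the other 16 markers summed to 3274 to 3875, 1230 to 2083, 307 to 460 and 507 to 624 in the same order. The part of any such cells in the results below was not tested. In bulk RNA, fewer cells of a type and less RNA per cell cannot be told apart.

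**Figure D2:**
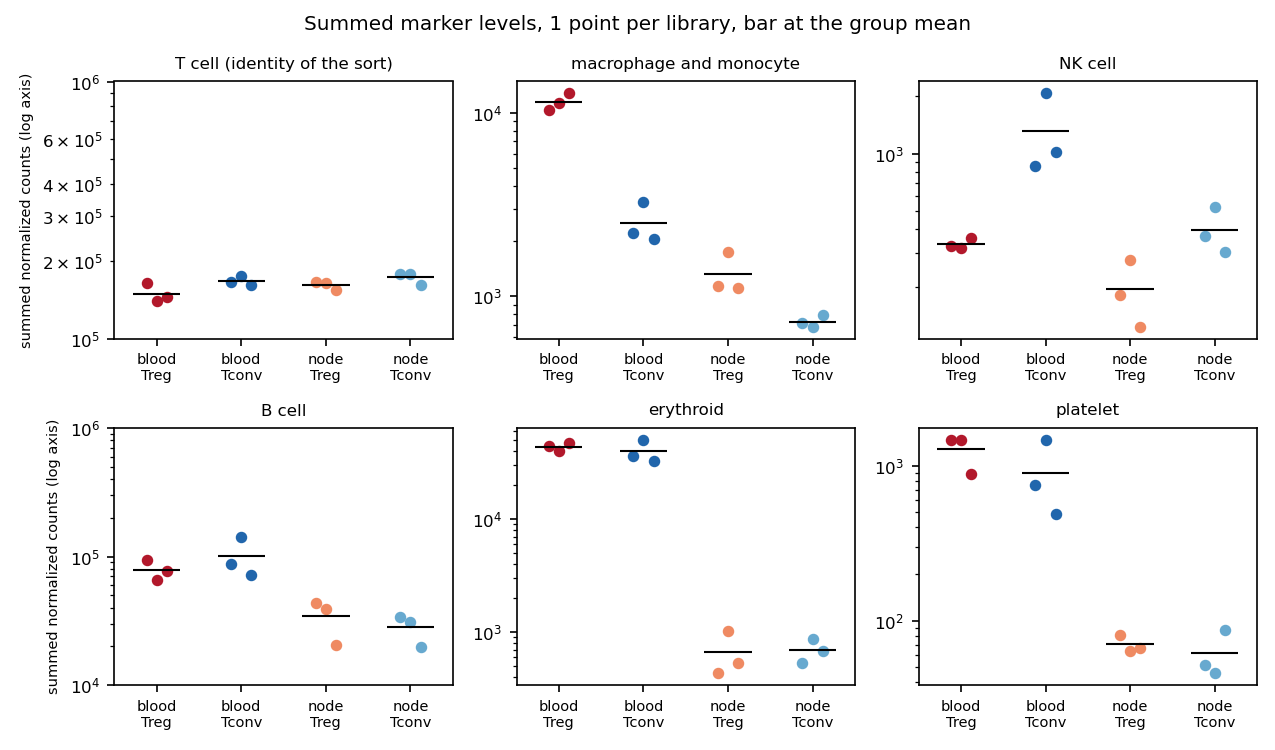
Each panel sums the normalized read counts of 1 marker list, on a log axis, with 1 point per library and a bar at the group mean. T cell genes are level over the 4 groups, erythroid, platelet and B cell genes are high in both blood groups, macrophage and monocyte genes are highest in PBMC Treg and NK genes highest in PBMC Tconv.

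Annexin, galectin and S100 genes were among the positive calls. S100 proteins and annexins bind calcium and act at membranes and the cytoskeleton, galectins bind sugars on surface proteins, and vimentin forms intermediate filaments. In a list of 16 genes, 12 of these 3 families with Vim, Crip1, Emp3 and Ahnak, 7 had a positive interaction past the threshold and 0 a negative one, where 0.772% of all genes were called positive. All 16 estimates were above 0, and their median was 1.28 against -0.013 for all genes. This list, like the others, was chosen with earlier results of these data known, so its counts are a description and no test. The 7 were Anxa1, Lgals3, S100a6 and Lgals1, which are 4 of the 12 family members, and Vim, Crip1 and Emp3. S100a4, S100a10, S100a11, S100a13, Anxa2, Anxa4, Anxa5, Anxa6 and Ahnak did not pass, with estimates from 0.08 to 2.50.

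Anxa1 (ENSMUSG00000024659, chromosome 19, 20373428 to 20390944 on GRCm38, protein coding), an annexin known for its role in resolving inflammation, had normalized read counts of 1488, 1806 and 1070 in PBMC Treg. It was at 145, 245 and 136 in PBMC Tconv, at 32.2, 37.9 and 18.1 in LDLN Treg and at 48.7, 32.8 and 31.1 in LDLN Tconv. Every blood Treg library was thus above every other library, while the node groups overlapped. The interaction of Anxa1 was 3.44 ± 0.420 (SE, n = 3 libraries per group) with a limma adjusted p of 0.00197.

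Lgals3 (ENSMUSG00000050335, chromosome 14, 47367751 to 47386160) encodes galectin-3. It was at 559, 767 and 1183 in PBMC Treg, 158, 206 and 121 in PBMC Tconv, 18.0, 17.0 and 11.4 in LDLN Treg and 34.5, 36.3 and 17.1 in LDLN Tconv. The node groups overlapped, and blood Treg were above all other libraries. Its interaction was 3.16 ± 0.457 (adjusted p = 0.00508, limma).

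Lgals1 (ENSMUSG00000068220, chromosome 15, 78926725 to 78930465), galectin-1, was far more abundant. The values were 4293, 5845 and 7416 in PBMC Treg, 1581, 2097 and 1350 in PBMC Tconv, 1053, 1109 and 1484 in LDLN Treg and 1005, 1095 and 1010 in LDLN Tconv. Again the 3 blood Treg libraries were the highest. The interaction was 1.58 ± 0.271 (adjusted p = 0.0131, limma). Anxa1, Lgals3 and Lgals1 kept their calls throughout.

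S100a6 (ENSMUSG00000001025, chromosome 3, 90612882 to 90624181) was at 2736, 3950 and 4700 in PBMC Treg, 582, 948 and 331 in PBMC Tconv, 392, 426 and 290 in LDLN Treg and 390, 456 and 179 in LDLN Tconv. Only the PBMC Treg libraries stood apart. Its interaction was 2.50 ± 0.517 (adjusted p = 0.0346, limma). S100a4, its neighbour on chromosome 3 and a regulator of cell motility, had the same estimate with a wider error, 2.50 ± 0.621 (adjusted p = 0.0761, limma), and did not pass. Vim was at 7281, 14680 and 15670 in PBMC Treg and between 3596 and 5268 in the 9 other libraries, with an interaction of 1.47 ± 0.299. The LIM-domain gene Crip1 and the membrane protein gene Emp3 had interactions of 1.37 ± 0.276 and 0.73 ± 0.149.

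The last 4 calls, of S100a6, Vim, Crip1 and Emp3, were less firm, and these genes were picked after their values were seen. The call of S100a6 was kept only without LDLN Tconv 3, PBMC Tconv 2 or PBMC Treg 1, and was lost without each of the other 9 libraries (adjusted p from 0.0687 to 0.103). Vim kept its call without LDLN Tconv 3, LDLN Treg 3 or PBMC Treg 1 and lost it without each other library (0.0559 to 0.101). Crip1 kept it without LDLN Treg 3, PBMC Tconv 2 or PBMC Treg 1 (otherwise 0.052 to 0.0984), and Emp3 without LDLN Tconv 2, LDLN Treg 3, PBMC Tconv 2 or PBMC Treg 1 (otherwise 0.0599 to 0.108). Over the fits that left out 1 library, 3 to 9 of the 16 genes were called and their median stayed between 1.07 and 1.53. Without both Tconv libraries that carried Foxp3 reads 6 were called, S100a4 and Anxa2 among them and Vim, Crip1 and Emp3 not. Several of these genes, Lgals3, Anxa1, S100a6 and Vim among them, are also abundant in monocytes, whose markers were highest in PBMC Treg. Of the 17 macrophage and monocyte markers, 6 were higher in every PBMC Treg library than in every PBMC Tconv library (Ccr2, Csf1r, Lyz2, Fcer1g, Cd68 and Adgre1), 2 were lower (Ly6c2 and Mpeg1) and 9 overlapped. Cd68 was at 200 to 232 in PBMC Treg against 107 to 143 in PBMC Tconv, and Adgre1 at 56.5 to 86.1 against 11.3 to 32.7. Among the 9 that overlapped, Cd14, Fcgr1, C1qa and C1qc were at or below 9.22 in every library.

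**Figure D3:**
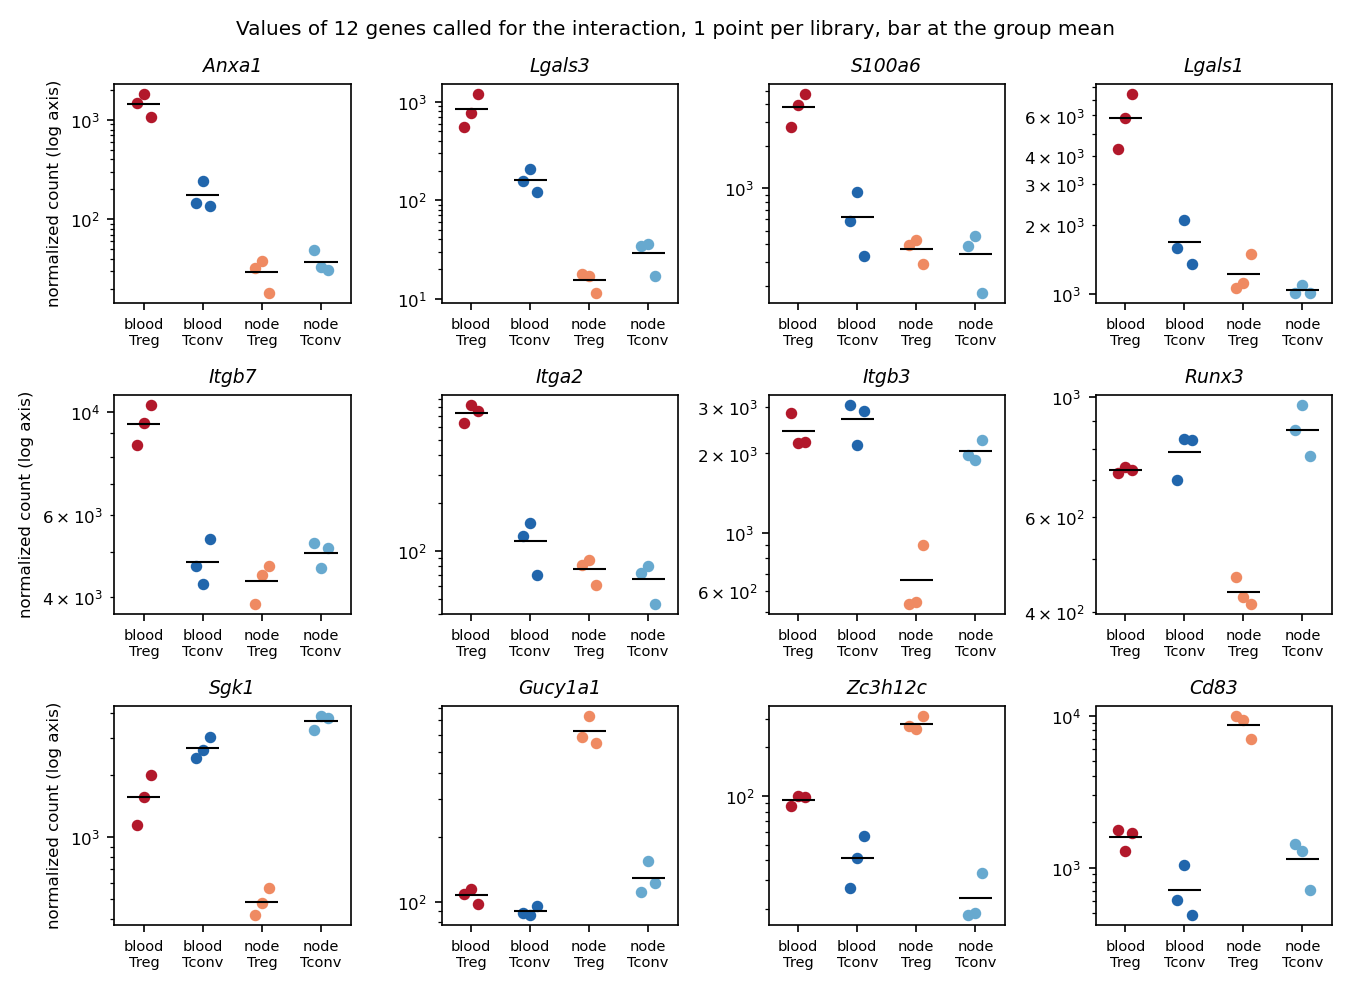
Normalized read counts of 12 genes called for the interaction, on log axes, with 1 point per library and a bar at the group mean. Anxa1, Lgals3, S100a6, Lgals1, Itgb7 and Itga2 are highest in the 3 PBMC Treg libraries, Itgb3, Runx3 and Sgk1 are lowest in LDLN Treg, and Gucy1a1, Zc3h12c and Cd83 are highest in LDLN Treg.

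Promoter windows of 3 called genes that were highest in blood Treg, Anxa1, S100a6 and Itgb7, are shown to compare short motifs of T cell transcription factors in them. The windows are the 250 bases before the transcription start that RefSeq gives on GRCm38.p6, 5′ to 3′ on the gene's strand. They are chr19:20390672-20390921 (minus strand) for Anxa1, chr3:90612644-90612893 (plus strand) for S100a6, and chr15:102231936-102232185 (minus strand) for Itgb7. These starts differ from the gene bounds given elsewhere here, which come from GENCODE. The Anxa1 window lies inside that gene's bounds, and the S100a6 and Itgb7 windows reach into theirs. Another start would give another window. Capitals mark TGTGGT or its complement ACCACA, the core that RUNX factors bind, in S100a6, and CACCC or its complement GGGTG, the core that KLF factors bind, in Itgb7. Both strands were searched, and the genes were picked after their values were seen.
Anxa1: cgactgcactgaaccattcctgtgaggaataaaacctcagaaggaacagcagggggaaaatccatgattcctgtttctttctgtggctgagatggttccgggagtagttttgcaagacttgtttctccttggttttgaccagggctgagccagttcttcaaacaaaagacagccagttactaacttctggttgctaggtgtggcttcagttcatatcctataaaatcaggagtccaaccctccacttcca
S100a6: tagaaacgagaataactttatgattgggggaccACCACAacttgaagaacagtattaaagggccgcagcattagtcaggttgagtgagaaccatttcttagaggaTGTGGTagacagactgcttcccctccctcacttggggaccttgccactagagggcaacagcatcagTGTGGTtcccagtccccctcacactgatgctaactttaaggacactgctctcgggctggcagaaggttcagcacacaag
Itgb7: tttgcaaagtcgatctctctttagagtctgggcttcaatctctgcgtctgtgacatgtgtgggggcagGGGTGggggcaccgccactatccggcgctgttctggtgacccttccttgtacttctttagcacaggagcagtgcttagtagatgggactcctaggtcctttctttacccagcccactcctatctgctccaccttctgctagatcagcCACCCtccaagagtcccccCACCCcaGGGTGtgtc
The Anxa1 window holds each motif 0 times, the S100a6 window holds TGTGGT 3 times and CACCC 0 times, and the Itgb7 window CACCC 4 times and TGTGGT 0 times. TGTGGT occurs at least once in 14.2% of the 27025 windows of this length in the table, in 11.5% of the 11378 windows matched to genes tested and in 13.9% of the 108 matched to genes with a positive call. CACCC occurs in 51.3%, 56.6% and 69.4% of the same sets, and in 57.1% of the 35 windows of genes with a negative call. A match describes letters in the window and is no evidence of binding.

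Integrins are pairs of alpha and beta chains by which T cells hold on to vessel walls and matrix. Of 16 chains tested, 5 had a positive interaction past the threshold (0.772% of all genes tested did) and 0 a negative one, and the median of the 16 was 0.33. Over the fits that left out 1 library, 3 to 5 of the chains were called. Itgb7, which pairs with Itga4 or Itgae and guides lymphocytes to the gut, had the smallest relative error. Itgb7 (ENSMUSG00000001281, chromosome 15, 102215995 to 102231944) was at 8463, 9443 and 10310 in PBMC Treg, 4653, 4268 and 5338 in PBMC Tconv, 3863, 4459 and 4665 in LDLN Treg and 5227, 4625 and 5101 in LDLN Tconv. Blood Treg stood apart and the other 3 groups overlapped. The interaction was 1.19 ± 0.151 (adjusted p = 0.00207, limma). Its partners Itga4 and Itgae had estimates of -0.25 (adjusted p = 0.662) and 0.38 (adjusted p = 0.866).

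Itga2 (ENSMUSG00000015533, chromosome 13, 114833081 to 114932100) and Itgb1 together form a collagen receptor. Itga2 was at 637, 819 and 751 in PBMC Treg, 124, 150 and 70.6 in PBMC Tconv, 81.6, 86.8 and 60.9 in LDLN Treg and 72.1, 79.6 and 46.2 in LDLN Tconv. Its interaction was 2.50 ± 0.374 (adjusted p = 0.00661, limma). Itgb1, picked after its values were seen, was at 7156, 10820 and 9185 in PBMC Treg and between 1272 and 2889 in the other 9 libraries. Its interaction was 1.66 ± 0.317 (adjusted p = 0.0242, limma). The call of Itgb1 was kept without LDLN Tconv 3, LDLN Treg 3, PBMC Tconv 2 or PBMC Treg 1, and lost without each of the other 8 libraries (0.0562 to 0.0804). Both chains were therefore highest in blood Treg, and neither separated Treg from Tconv in the node.

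Itgb3 showed another shape. This beta chain of the vitronectin receptor (chromosome 11, 104608000 to 104670476) was at 2854, 2196 and 2220 in PBMC Treg, 3042, 2149 and 2909 in PBMC Tconv and 1978, 1892 and 2245 in LDLN Tconv. In LDLN Treg it was at 537, 549 and 896. The positive interaction, 1.51 ± 0.262 (adjusted p = 0.0138, limma), thus came with low values in node Treg and not with high values in blood Treg. Itgam, the alpha chain of a complement receptor found on myeloid cells, was at 135, 281 and 210 in PBMC Treg, 157, 126 and 186 in PBMC Tconv, 22.8, 24.9 and 37.1 in LDLN Treg and 104, 69.1 and 124 in LDLN Tconv. Its interaction was 2.14 ± 0.406 (adjusted p = 0.024). Itgam kept its call without LDLN Tconv 2, LDLN Tconv 3, LDLN Treg 3, PBMC Tconv 3 or PBMC Treg 1 and lost it without each other library (0.0559 to 0.0775). Itgb7, Itga2 and Itgb3 kept theirs throughout. Itga2 and Itgb3 are also platelet genes, and the platelet markers summed to 890 to 1474 in PBMC Treg and 487 to 1464 in PBMC Tconv.

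Receptors for leaving and entering lymphoid organs were mostly short of the threshold. In a list of 15 genes of homing and egress, Itgb7 was the 1 gene called, where 0.772% of all genes tested were called positive. The list median was 0.52. S1pr1, the receptor that lets lymphocytes leave nodes, was at 20650, 16960 and 20080 in PBMC Treg, 21220, 18220 and 21460 in PBMC Tconv, 7344, 7471 and 10940 in LDLN Treg and 16090, 14980 and 16610 in LDLN Tconv. Node Treg were below the other 3 groups in every library. The interaction of S1pr1 was 0.83 ± 0.194 and did not pass (adjusted p = 0.0579, limma). S1pr4, the selectin ligand gene Selplg and Fut7, which makes the sugar that selectins bind, had estimates of 0.77, 0.80 and 1.58 (adjusted p = 0.0578, 0.0589 and 0.0504). Ccr7 and Klf2, which act in entry into nodes and in egress, had -0.07 and 0.52 (adjusted p = 0.938 and 0.240). Over the fits that left out 1 library, 1 to 5 of the 15 genes were called.

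Among 16 chemokine receptors 1 was called, in the positive direction, where 0.772% of all genes tested were. The list median was -0.17. Ccr10, a receptor for skin and mucosal chemokines (chromosome 11, 101172997 to 101175443), was at 132, 214 and 203 in PBMC Treg, 4.47, 8.44 and 10.2 in PBMC Tconv, 4.74, 2.00 and 0.952 in LDLN Treg and 3.04, 2.34 and 0 in LDLN Tconv. The 3 PBMC Treg libraries were far above the other 9. Its interaction was 3.99 ± 0.823 (adjusted p = 0.0345, limma). With node values this close to 0, the estimate depends on the pseudocount. The call was kept without LDLN Tconv 3, LDLN Treg 1 or PBMC Treg 1 and lost without each other library (0.0573 to 0.0993). Ccr3, an eotaxin receptor, was at 453, 647 and 848 in PBMC Treg and at 29.4, 30.9 and 33.3 in LDLN Treg. In Tconv it was at 63.8, 3.16 and 6.14 in PBMC and 1.01, 5.86 and 13.1 in LDLN, and the interaction of 3.19 ± 1.16 did not pass (adjusted p = 0.266). The gut receptor Ccr9 pointed the other way at -1.52 (adjusted p = 0.0778), with LDLN Treg at 1499, 2159 and 872 and the 9 other libraries between 369 and 667.

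A few genes of the cell cycle had wider gaps in blood. Of 20 such genes 3 had a positive interaction past the threshold, where 0.772% of all genes did, and 0 a negative one, with a median of 0.96 over the list. Ccnb2, a cyclin of mitosis, was at 321, 355 and 798 in PBMC Treg, 116, 141 and 82.9 in PBMC Tconv, 58.8, 92.8 and 93.3 in LDLN Treg and 101, 120 and 79.3 in LDLN Tconv. Its interaction was 2.31 ± 0.445 (adjusted p = 0.0246, limma). Ccne1, a cyclin of entry into DNA synthesis, had 1.23 ± 0.237 (adjusted p = 0.0246) and the mitotic kinase Aurka 1.14 ± 0.243 (adjusted p = 0.0404). Both were highest in every PBMC Treg library, at 161 to 174 for Ccne1 and 147 to 201 for Aurka. Mki67, the proliferation antigen Ki-67, was at 1726, 2540 and 3160 in PBMC Treg and between 257 and 782 in the other 9 libraries, and its interaction of 1.53 ± 0.400 did not pass (adjusted p = 0.0938). The 16 other genes of the list did not pass either, with estimates from -0.24 for Mcm5, a subunit of the replication helicase, to 1.71 for Kif11, a motor of the mitotic spindle. Among those of DNA synthesis, Mcm2, Mcm3, Mcm5, Pcna and Tyms were at or below 0.08 and Rrm2 at 0.96.

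These calls too were lost in several fits without 1 library, while the estimates kept their sign. In those fits Ccnb2 ran from 1.89 to 2.55, Ccne1 from 1.15 to 1.38 and Aurka from 1.01 to 1.25. Ccnb2 kept its call without LDLN Tconv 3, LDLN Treg 3, PBMC Tconv 2 or any 1 PBMC Treg library and lost it without each other library (adjusted p from 0.051 to 0.0804). Ccne1 lost it without LDLN Tconv 2, LDLN Treg 1, LDLN Treg 2, PBMC Tconv 3, PBMC Treg 2 or PBMC Treg 3 (0.052 to 0.0841). Aurka kept it without LDLN Tconv 2, PBMC Treg 1 or PBMC Treg 2 and lost it otherwise (0.0549 to 0.125). Across these fits 0 to 8 of the 20 genes were called, with medians of 0.61 to 1.17. Without PBMC Treg 1 and both Tconv libraries with Foxp3 reads 7 were called, Mki67 and Kif11 among them.

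**Figure D4:**
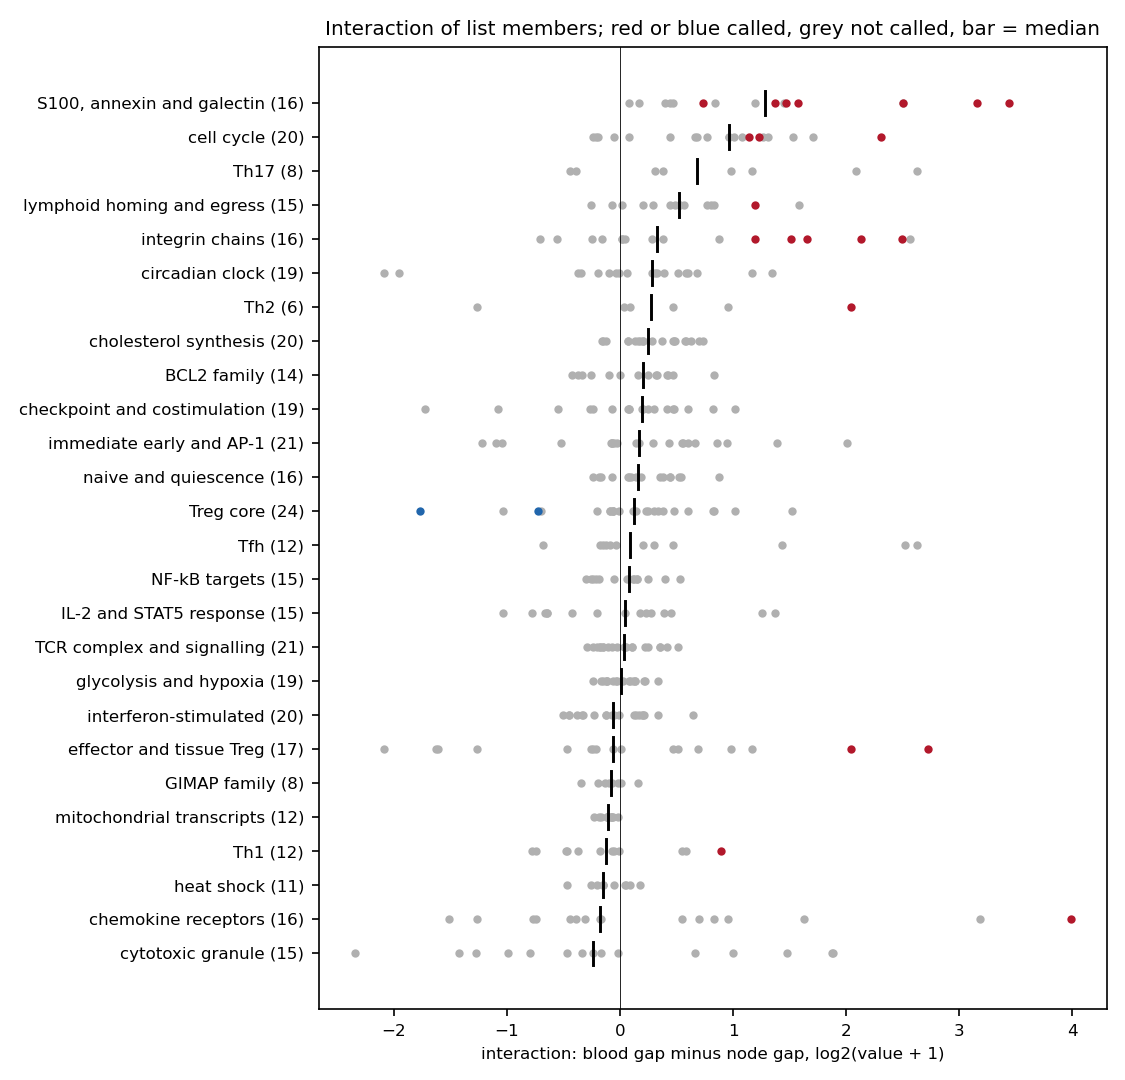
Each row is 1 gene list with its number of genes tested, each point the interaction of 1 member, and the bar the median. Called members are coloured red for a positive and blue for a negative interaction; the S100, annexin and galectin list has all 16 members above 0, and most other lists straddle 0.

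Among 24 core genes of Treg identity, 0 had a positive and 2 a negative interaction past the threshold, where 0.772% and 0.255% of all genes did, and the median was 0.13. Over the fits that left out 1 library, 0 to 2 were called. Foxp3 had 0.34 ± 1.66 (adjusted p = 0.965) and Il2ra 0.23 ± 0.630 (adjusted p = 0.935), with errors wide enough to allow large differences, as the Tconv values of Foxp3 ran from 13.7 to 627. Both changed sign without LDLN Tconv 3, PBMC Tconv 2 or PBMC Tconv 3, to as low as -1.09 for Foxp3 and -0.30 for Il2ra. Ctla4, an inhibitory receptor, had 0.47 ± 0.265 and Ikzf2, the transcription factor Helios, 1.52 ± 0.433 (adjusted p = 0.537 and 0.131). Thy1, which is the endogenous gene and the source of the reporter's surface protein, had an interaction of 0.70 ± 0.131 (adjusted p = 0.0234, limma). It was at 3840, 3398 and 3005 in PBMC Treg, 1582, 1443 and 1609 in PBMC Tconv, 2933, 3143 and 2885 in LDLN Treg and 2193, 2155 and 2248 in LDLN Tconv. Reads of the reporter and of the endogenous gene may not be told apart, and the call was lost without LDLN Tconv 1, LDLN Tconv 2, LDLN Treg 1 or PBMC Treg 2 (0.0507 to 0.0779).

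The 2 core genes called were Cd83 and Rgs1, both of which were most abundant in node Treg. Cd83, a surface protein of activated lymphocytes (chromosome 13, 43784775 to 43803132), was at 9886, 9331 and 6998 in LDLN Treg, 1431, 1277 and 716 in LDLN Tconv, 1771, 1293 and 1682 in PBMC Treg and 612, 1034 and 486 in PBMC Tconv. Its interaction was -1.77 ± 0.385 (adjusted p = 0.045, limma). Rgs1, which damps chemokine receptor signals, was at 14110, 11830 and 11200 in LDLN Treg, 970, 952 and 952 in LDLN Tconv, 3858, 3221 and 4306 in PBMC Treg and 470, 479 and 504 in PBMC Tconv. Treg were above Tconv at both sites, by less in blood, and the interaction of Rgs1 was -0.72 ± 0.155 (adjusted p = 0.0413, limma). Cd83 kept its call without LDLN Treg 3, PBMC Tconv 3 or PBMC Treg 1 and lost it without each other library (0.0544 to 0.134). Rgs1 kept it without LDLN Treg 3, PBMC Treg 1 or PBMC Treg 3 (otherwise 0.0615 to 0.126). Without both Tconv libraries with Foxp3 reads neither was called, and Ikzf2 (2.22) and Nrp1 (1.22) were called in the positive direction in their place.

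Effector Treg that settle in tissues express the IL-33 receptor and, in fat, the lipid-sensing receptor PPARγ. Of 17 genes of that state 2 were called positive and 0 negative, where 0.772% and 0.255% of all genes tested were. The median was -0.06. Il1rl1, the IL-33 receptor (chromosome 1, 40429570 to 40465415), was at 2231, 4592 and 3673 in PBMC Treg, 224, 88.6 and 95.2 in PBMC Tconv, 506, 464 and 471 in LDLN Treg and 71.0, 92.5 and 58.2 in LDLN Tconv. Treg were above Tconv at both sites and by more in blood, with an interaction of 2.04 ± 0.443 (adjusted p = 0.0443, limma). Pparg was low throughout, at 48.2, 43.4 and 37.9 in PBMC Treg and between 2.84 and 10.5 in the 9 other libraries, with an interaction of 2.72 ± 0.60 (adjusted p = 0.047). No fit of 11 libraries called it (0.0515 to 0.111). Il1rl1 kept its call without LDLN Tconv 3, PBMC Tconv 1 or PBMC Treg 1 and lost it otherwise (0.0744 to 0.111). Rora, a nuclear receptor of tissue Treg, had 1.16 ± 0.293 (adjusted p = 0.0804), whereas Ccr8, Il10, Fgl2 and Bhlhe40 had estimates from -1.27 to -2.09 and did not pass. The list thus held genes that pointed both ways: without both Tconv libraries with Foxp3 reads, Il1rl1 and Rora were called positive and Bhlhe40 and Ccr8 negative.

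Genes highest in node Treg made up most of the negative calls. Gucy1a1 (ENSMUSG00000033910, chromosome 3, 82092427 to 82145789) encodes the alpha subunit of the soluble guanylate cyclase, the receptor for nitric oxide. It was at 584, 731 and 550.4 in LDLN Treg, and at 111, 155 and 121 in LDLN Tconv, 109, 115 and 97.3 in PBMC Treg and 88.4, 86.5 and 95.2 in PBMC Tconv. The 3 node Treg libraries stood apart from the other 9. Its interaction was -2.02 ± 0.222 (adjusted p = 0.00087, limma). Gucy1b1, the beta subunit, which lies beside it (chromosome 3, 82032006 to 82074689), was picked after its values were seen. It was at 169, 243 and 230 in LDLN Treg and between 60.5 and 138 in the other libraries, with an interaction of -1.63 ± 0.343 (adjusted p = 0.0372). The beta subunit's call was kept without LDLN Tconv 2, LDLN Treg 1, PBMC Tconv 1 or PBMC Treg 1 and lost without each other library (0.0559 to 0.111).

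Adgrg1 (ENSMUSG00000031785, chromosome 8, 94974751 to 95014217), an adhesion receptor of the G protein-coupled family, was at 438, 388 and 308 in LDLN Treg, 17.3, 11.7 and 13.1 in LDLN Tconv, 144, 103 and 64.6 in PBMC Treg and 44.7, 44.3 and 17.4 in PBMC Tconv. Treg exceeded Tconv at both sites, by far more in the node, and the interaction was -3.10 ± 0.496 (adjusted p = 0.00929, limma). Zc3h12c, a zinc finger protein of a family that degrades inflammatory mRNAs (chromosome 9, 52111344 to 52168572), was at 270.3, 260.4 and 311 in LDLN Treg, 18.3, 18.7 and 33.1 in LDLN Tconv, 87.0, 99.9 and 98.4 in PBMC Treg and 26.8, 41.1 and 56.3 in PBMC Tconv. Its interaction was -2.34 ± 0.380 (adjusted p = 0.00977). Tgfbr1, the type I receptor for TGF-β and also picked after its values were seen, was at 5532, 5775 and 5912 in LDLN Treg against 1222 to 2660 in the other libraries (interaction -0.93 ± 0.134, adjusted p = 0.00508). Gucy1a1, Adgrg1, Zc3h12c and Tgfbr1 kept their calls throughout.

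Other negative calls involved values near 0 or low values in node Tconv. Fbln2, a matrix protein gene, was at 58.8, 43.9 and 52.4 in LDLN Treg and at or below 6.15 in all other libraries. Its interaction was -4.24 ± 0.746 (adjusted p = 0.0156, limma) and -2.35 with a pseudocount of 10, as values near 0 weigh on it. It was not tested without any 1 of the LDLN Treg libraries, since it then failed the filter, and kept its call without each of the other 9. Arhgap24, which switches off small GTPases, and Ncf1, a subunit of the phagocyte oxidase, had their lowest values in node Tconv. Arhgap24 was also highest in node Treg, at 122 to 127 against 23.3 to 75.7 in the other libraries. Ncf1 was at 89.3, 111 and 82.3 in LDLN Tconv and between 210 and 375 in the other groups, and the 2 blood groups overlapped. The interactions were -2.32 ± 0.353 for Arhgap24 (adjusted p = 0.00686) and -1.78 ± 0.246 for Ncf1 (adjusted p = 0.00363), and both calls were kept throughout. Hdac9, a histone deacetylase, had -1.87 ± 0.357 (adjusted p = 0.024) and Ptprj, a receptor phosphatase, -1.64 ± 0.333 (adjusted p = 0.0317), each also lowest in LDLN Tconv. Hdac9 lost its call without LDLN Tconv 1, LDLN Treg 1, LDLN Treg 2, PBMC Tconv 2, PBMC Treg 2 or PBMC Treg 3 (0.0559 to 0.0757), and Ptprj without these or PBMC Tconv 1 (0.0588 to 0.0957).

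Many genes with firm positive calls belonged to none of the lists. Lmna, the A-type lamin of the nuclear envelope (chromosome 3, 88480147 to 88509956), was at 418, 790.0 and 637 in PBMC Treg, 67.1, 120.2 and 35.8 in PBMC Tconv, 19.9, 13.97 and 32.4 in LDLN Treg and 37.5, 24.6 and 23.1 in LDLN Tconv. Its interaction was 3.54 ± 0.564 (adjusted p = 0.00887, limma). Syne2, which ties the nuclear envelope to the cytoskeleton, had 2.16 ± 0.212 and Nebl, an actin-binding protein, 2.90 ± 0.259 (adjusted p = 0.000502 and 0.000389). Both were picked after their values were seen, and both were lowest in LDLN Treg: Nebl was at 116, 135 and 109 there and at 1076, 1500 and 1045 in PBMC Treg. Mmp25, a membrane-anchored matrix protease (chromosome 17, 23628311 to 23645277), was at 296, 507 and 416 in PBMC Treg and between 17.1 and 45.9 in the other 9 libraries. Its interaction was 3.45 ± 0.350 (adjusted p = 0.000502). Popdc2, Lad1 and Il9r, the last being the IL-9 receptor and picked after its values were seen, had 3.55 ± 0.593, 2.97 ± 0.411 and 2.82 ± 0.456. Lad1 was the exception in shape, with a higher mean in node Treg (350.3, range 259 to 507) than in blood Treg (189.1, range 149 to 267). Its Tconv values were 119.5 to 198.9 in the node and low in blood (8.43 to 12.3). All of these kept their calls throughout. Prune2, with 3.32 ± 0.585 (adjusted p = 0.0156), lost its call without PBMC Treg 3 (0.0513).

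Some positive interactions arose where Treg were below Tconv. Sgk1, a kinase that controls ion channels and helper cell fate, was picked after its values were seen and had an interaction of 2.08 ± 0.240 (adjusted p = 0.0013, limma). It was at 419, 480 and 564 in LDLN Treg, 3289, 3833 and 3777 in LDLN Tconv, 1138, 1561 and 1985 in PBMC Treg and 2404, 2651 and 3055 in PBMC Tconv. Treg were below Tconv at both sites, by less in blood. Runx3, a transcription factor of the Th1 list (chromosome 4, 135120652 to 135177990), was at 464, 426 and 413 in LDLN Treg, 867, 963 and 775 in LDLN Tconv, 723, 742 and 732 in PBMC Treg and 702, 834 and 830 in PBMC Tconv. Node Treg alone were low, and the interaction was 0.89 ± 0.149 (adjusted p = 0.011). Sgk1 and Runx3 kept their calls throughout. Runx3 was the 1 gene called of 12 in the Th1 list, where 0.772% of all genes tested were called positive. The list median was -0.12.

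Several called genes are markers of myeloid or NK cells. Of 12 macrophage and monocyte markers tested 3 were called positive and 0 negative, where 0.772% and 0.255% of all genes tested were. The median was 0.97. Called were Csf1r, the receptor for macrophage colony-stimulating factor, Fcer1g, the common gamma chain of Fc receptors, and Itgam, whose blood groups overlapped. Vcan (-1.10), C1qb (-0.66), Ly6c2 (-0.53) and Mpeg1 (-0.29) pointed the other way and did not pass. Csf1r was at 580, 431 and 368 in PBMC Treg, 42.5, 35.9 and 77.8 in PBMC Tconv, 16.1, 10.97 and 14.3 in LDLN Treg and 12.2, 15.2 and 18.1 in LDLN Tconv. Its interaction was 3.30 ± 0.417 (adjusted p = 0.00207, limma) and kept its call throughout. Fcer1g had 2.96 ± 0.603 (adjusted p = 0.0325), the lectin gene Clec4a1 2.90 ± 0.515 (adjusted p = 0.016, kept throughout) and the chemokine gene Ccl6 3.69 ± 0.803 (adjusted p = 0.045). Ccl6 was at 194, 251 and 93.2 in PBMC Treg, 12.3 to 15.7 in PBMC Tconv and at most 2.01 in the node, where 4 of 6 libraries had 0. Lyz2, the myeloid lysozyme, was at 1423, 2005 and 1623 in PBMC Treg and between 65.4 and 440 elsewhere, with 2.54 ± 0.575 (adjusted p = 0.0527). Fcer1g kept its call without LDLN Tconv 2, LDLN Tconv 3, PBMC Tconv 2 or PBMC Treg 1 (otherwise 0.0544 to 0.0876), and Ccl6 only without LDLN Tconv 2 (otherwise 0.054 to 0.132).

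Of 10 NK markers tested 1 was called, in the negative direction, where 0.255% of all genes tested were. The median was -2.33. Eomes (1.88) and Cd244a (0.08) pointed the other way and did not pass. Klrb1c, which encodes NK1.1, the antigen excluded by the sort, was at 196, 375 and 143 in PBMC Tconv, 11.3, 16.1 and 18.4 in PBMC Treg, 98.6, 154 and 29.5 in LDLN Treg and 104, 129 and 53.2 in LDLN Tconv. Its interaction was -3.57 ± 0.724 (adjusted p = 0.0317, limma). NK markers summed to 861 to 2078 in PBMC Tconv, against 321 to 362 in PBMC Treg and 123 to 525 in the node. Siglech, a marker of plasmacytoid dendritic cells, was at 372, 558 and 412 in PBMC Tconv, 69.0, 151 and 101 in PBMC Treg and between 45.7 and 64.2 in the node, with -1.87 ± 0.348 (adjusted p = 0.0223). Enthd1 was likewise highest in PBMC Tconv, at 77.2, 77.0 and 52.2 against 7.06 to 19.9 in the other libraries, with -2.64 ± 0.535 (adjusted p = 0.0317). Klrb1c kept its call without LDLN Tconv 2, LDLN Treg 3 or PBMC Tconv 3 (otherwise 0.0513 to 0.101). Enthd1 kept it without LDLN Tconv 2, LDLN Tconv 3, LDLN Treg 3 or PBMC Treg 1 (otherwise 0.0507 to 0.0916). Siglech lost it without LDLN Tconv 1, LDLN Treg 1, LDLN Treg 2 or PBMC Treg 3 (0.0518 to 0.0687). Siglech was the 1 gene called of 10 dendritic cell markers (median -0.11), where 0.255% of all genes tested were called negative. Of these markers 3 had estimates above 0, the largest being Itgax (2.565), which did not pass. Bst2 of the same list had -0.01. No B cell, neutrophil, erythroid, platelet, endothelial, CD8 and γδ or T cell marker was called, with medians of -0.25, 0.92, -0.04, 0.25, 0.40, -0.05 and -0.10.

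In 17 further lists no gene passed the threshold. They held 255 different genes, of which limma found 55 (21.6%) at an unadjusted p under 0.05, against 11.9% of all genes tested, while edgeR on the recovered reads called 1 and DESeq2 11. In the Th2 list Il1rl1 was the 1 gene called of 6 tested, in the positive direction, where 0.772% of all genes tested were. The median of all genes was -0.013. List medians were 0.16 for genes of the naive state, 0.05 for the IL-2 and STAT5 response, 0.17 for immediate early genes, 0.08 for NF-kB targets and -0.06 for interferon-stimulated genes. They were -0.15 for heat shock genes, 0.19 for checkpoint and costimulatory receptors, 0.68 for Th17 genes, 0.09 for Tfh genes, -0.24 for cytotoxic granule genes, 0.20 for the BCL2 family and -0.08 for the GIMAP family. They were 0.01 for glycolysis, 0.25 for cholesterol synthesis, 0.29 for the circadian clock, 0.04 for the T cell receptor complex and -0.11 for mitochondrial transcripts. Tcf7, a transcription factor of naive T cells, had -0.23 ± 0.148 (adjusted p = 0.609): it was at 9124 to 12760 in both Treg groups and at 27540 to 37560 in both Tconv groups. The smallest p-values in such lists belonged to genes with large differences between the sites. Nr4a1, induced by antigen receptor signals, was at 414 to 683 in PBMC Treg, 108 to 208 in PBMC Tconv, 1833 to 2576 in LDLN Treg and 1224 to 1904 in LDLN Tconv, with 1.39 ± 0.335 (adjusted p = 0.0683). Il21, the helper cytokine, was at 380, 399 and 69.2 in LDLN Tconv and at most 71.8 elsewhere, with 2.63 ± 0.781 (adjusted p = 0.154). Cst7, an inhibitor of granule proteases, had -1.28 ± 0.291 (adjusted p = 0.0546).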

How the data were processed

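Paired-end libraries were made from SMARTer-amplified poly(A) RNA of the sorted cells, as the labels' protocols say. The authors deposited a table of normalized read counts, a signal that is never negative, covering 35612 genes. HTSeq 0.6.1p1, SAMtools 0.1.19, Bowtie2 2.2.2, TopHat2 2.0.11 and Trimmomatic 0.32 are named in the submitters' processing notes, with the build GRCm38. Whether counting used strand is not given in the sources used here: overlapping and antisense genes cannot be told apart. The deposited signal of each of the 12 libraries was a whole multiple of 1 step (within 0.001 for 100% of values), which gave back whole reads. Symbols and coordinates came from GENCODE for 34645 identifiers, and 967 kept their identifier.

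Values were transformed as log2(value + 1), which understates differences of low genes. limma 3.58.1 in R 4.3.3 fitted 1 mean per group with a variance trend (8 residual degrees of freedom) and tested the interaction, with Benjamini-Hochberg adjustment over 17234 genes at 0.05. Errors are standard errors. On simulated data of this comparison, with 17234 genes, 54% of 100 genes changed by 1 and 96% of 100 changed by 2 on the log2 scale were called, and 3 unchanged genes were. The changed genes were drawn from those with a mean of at least 50 over the 12 libraries, so these shares do not cover lower genes. Libraries are pools of mice and p-values measure the spread between pools.

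Named genes were the 12 largest positive and 12 largest negative calls with a group mean of at least 50, passing over predicted genes, identifiers without a symbol, antigen receptor segments and immunoglobulin genes. To these were added Foxp3, Il2ra, Thy1 and, from each of 26 gene lists and 10 marker lists, up to 3 called members, or the member with the smallest p where none was called. A gene that this rule also named is not reported here. Other genes were picked after their values were seen, also S100a4, S1pr1, S1pr4, Selplg, Fut7, Mki67, Kif11, Ccr3, Ccr9, Ikzf2, Ctla4, Tcf7 and Lyz2. The genes and lists were chosen with earlier results of these data known. Alternatives were other pseudocounts, filters and scalings, all 24 libraries in the fit, no variance trend, a minimum change, a block for the replicate number, fits without 1 library each, and edgeR 4.0.16 and DESeq2 1.42.0 on the recovered reads. Fits without the Tconv libraries with Foxp3 reads, and without PBMC Treg 1 too, were added after seeing the data.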

Additional observations from a re-analysis of the deposited data

Results flagged for a closer look

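The results below are flagged because a test of the difference itself found that the Treg-Tconv gap was not the same in blood and in the node. In all, 177 genes passed. Groups of 3 libraries are too small for a check of single outlying samples.

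Among genes with a wider or more positive gap in blood, the interactions were 3.99 for Ccr10, 3.69 for Ccl6, 3.55 for Popdc2, 3.54 for Lmna, 3.45 for Mmp25, 3.44 for Anxa1, 3.32 for Prune2, 3.30 for Csf1r and 3.16 for Lgals3. They were 2.97 for Lad1, 2.96 for Fcer1g, 2.90 for Clec4a1, 2.90 for Nebl, 2.82 for Il9r, 2.72 for Pparg, 2.50 for Itga2, 2.50 for S100a6, 2.31 for Ccnb2, 2.16 for Syne2, 2.14 for Itgam, 2.08 for Sgk1 and 2.04 for Il1rl1. The smaller ones were 1.66 for Itgb1, 1.58 for Lgals1, 1.51 for Itgb3, 1.47 for Vim, 1.37 for Crip1, 1.23 for Ccne1, 1.19 for Itgb7, 1.14 for Aurka, 0.89 for Runx3, 0.73 for Emp3 and 0.70 for Thy1.

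In the other direction they were -4.24 for Fbln2, -3.57 for Klrb1c, -3.10 for Adgrg1, -2.64 for Enthd1, -2.34 for Zc3h12c, -2.32 for Arhgap24, -2.02 for Gucy1a1, -1.87 for Siglech, -1.87 for Hdac9, -1.78 for Ncf1, -1.77 for Cd83, -1.64 for Ptprj, -1.63 for Gucy1b1, -0.93 for Tgfbr1 and -0.72 for Rgs1.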

How the results depend on the processing

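The 177 calls (133 positive, 44 negative) became 308 (221 and 87) with a pseudocount of 10, 56 (46 and 10) without a variance trend, 484 (318 and 166) with DESeq2 and 491 (357 and 134) with edgeR and no filter. A minimum change of 1 on the log2 scale in limma left 2 (2 and 0), the genes Mmp25 and Nebl, with 107 positive and 54 negative at an unadjusted p under 0.05. Quantile scaling gave 73 negative calls, and leaving out both Tconv libraries with Foxp3 reads 24. Over the fits without 1 library, total calls ran from 78 to 263, positive from 63 to 184 and negative from 13 to 79. Calls with a pseudocount of 0.1 (165), no filter (131), a filter at 50 (211), upper quartile scaling (189), all 24 libraries (161) and edgeR (184) stayed within 1.5 times. The cause of these differences was not tested.

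With the replicate number as a block, calls rose to 291 (214 and 77) across the 4 groups and to 351 (249 and 102) within each site. Among the genes named, 14 gained a call and 0 lost one across the 4 groups. Within each site 17 gained one, S100a4, S1pr1, Kif11, Mki67 and Ikzf2 among them, and Aurka lost its call (limma adjusted p = 0.0541). The labels do not say that equal numbers share mice. Deviations of equally numbered Treg and Tconv libraries from their group means correlated at 0.081 to 0.323, under 0.1 in 1 of 6 pairs, and 11 of 12 libraries correlated best with their own number, a hint from the data and not from the design.

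The interaction of Foxp3 turned to -1.09 without LDLN Tconv 3, -0.74 without PBMC Tconv 2 and -0.21 without PBMC Tconv 3, and reached 1.97 without PBMC Tconv 1. That of Il2ra turned to -0.30, -0.01 and -0.15 in the first 3 of these fits, and to 0.85 in the last. No scaling moved the median of all genes by more than 0.1. Genes with values near 0, such as Ccr10, Ccl6, Pparg and Fbln2, are limited by depth and by the pseudocount.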
